A study of Mus musculus with 2 samples.

Results

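DNase I hypersensitive peaks at the 3' ends of protein-coding genes were described in retina of mouse embryos at embryonic day 14.5. A peak was counted as a 3' end peak where it came from an autosome in replicate 1, was overlapped by at least 1 bp by a peak of replicate 2, had its midpoint within 1 kb of the 3' end of a protein-coding gene of GENCODE on mm10, and had that midpoint over 1 kb from every annotated transcription start site (TSS) and outside coding sequence. Position and overlap in replicate 2 chose these peaks, and no score cutoff was used. Low-scored peaks were less often overlapped, so the choice leaned to higher scores. There were 2034 of them, 1.23% of the 165269 peaks of replicate 1 and 2.47% of the 82386 shared autosomal peaks over 1 kb from a TSS and outside coding sequence. The remaining 80352 of those peaks, called other distal peaks, serve for comparison.

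The series holds 1 group, retina of strain B6NCrl with male and female embryos pooled, in 2 biological replicates whose labels name 1 donor and 2 biosamples. No genotype, treatment or second stage was compared. DNase-seq cuts chromatin in nuclei with DNase I and reads where the enzyme entered, so a peak marks sequence left open between nucleosomes. The libraries held 165269 peaks in replicate 1 and 219308 in replicate 2, each peak 150 bp wide with a whole-valued score of at most 150, and no read numbers, so depth is unknown. Of 20 retinal marker genes, 20 had a promoter peak in both libraries, against 4 of 13 autosomal marker genes of lens, pigment epithelium, vessel, immune, connective tissue and liver cells. With 2 libraries of 1 group there is no test between conditions, and none is given.

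The 3' end of a gene is where RNA polymerase II passes the polyadenylation signal, the transcript is cut and given its poly(A) tail, and the polymerase is released further downstream. Open chromatin away from promoters is best known from enhancers and from sites bound by CTCF, the zinc finger protein that halts cohesin and borders chromatin loops in a way that depends on the direction of its motif. Retinal tissue of this stage contains dividing progenitors beside young ganglion, amacrine, horizontal and cone neurons, whose identities are set by bHLH and homeodomain transcription factors.

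Sequences of a few 3' end peaks are given first, because the results below turn on their composition. All are the plus strand of GRCm38 (mm10), 5' to 3', 150 bases each, and lie outside the exons of protein-coding and noncoding transcripts in GENCODE and RefSeq, apart from the tRNA gene in the last of them. In the next pair, among the highest-ranked 3' end peaks, capitals mark every CG dinucleotide.
Sec14l2 at chr11:4096676-4096825: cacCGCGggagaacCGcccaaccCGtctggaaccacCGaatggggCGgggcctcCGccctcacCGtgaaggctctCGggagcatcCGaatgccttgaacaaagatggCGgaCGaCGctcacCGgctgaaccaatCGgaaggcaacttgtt
Ctdsp1 at chr1:74397396-74397545: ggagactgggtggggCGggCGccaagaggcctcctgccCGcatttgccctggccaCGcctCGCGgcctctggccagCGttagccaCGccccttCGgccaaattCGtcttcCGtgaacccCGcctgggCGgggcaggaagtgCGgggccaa
The next 3 each contain the CTCF core consensus on 1 of the strands, given in capitals. The gene runs on the plus strand for all 3.
Eef1b2 at chr1:63181156-63181305: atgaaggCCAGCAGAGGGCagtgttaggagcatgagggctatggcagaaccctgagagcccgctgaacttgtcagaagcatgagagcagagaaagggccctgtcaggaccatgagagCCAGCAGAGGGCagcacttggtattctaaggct
Acvrl1 at chr15:101145536-101145685: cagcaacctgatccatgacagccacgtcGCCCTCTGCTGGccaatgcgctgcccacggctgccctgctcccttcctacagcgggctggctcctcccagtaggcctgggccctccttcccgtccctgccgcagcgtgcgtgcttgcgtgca
Ebf1 at chr11:45008216-45008365: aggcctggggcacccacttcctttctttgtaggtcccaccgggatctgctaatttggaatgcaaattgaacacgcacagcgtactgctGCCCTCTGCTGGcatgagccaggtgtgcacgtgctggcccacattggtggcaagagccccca
The next 3 lie at genes of the 4 retinal lists described below and are among the highest-ranked of their peaks outside exons and without a CTCF match, and capitals mark E-boxes (CANNTG) and the SOX motif ACAAAG. Dlx2 has neither, and none of the 3 has the homeodomain motif TAATTA.
Barhl2 at chr5:106451976-106452125: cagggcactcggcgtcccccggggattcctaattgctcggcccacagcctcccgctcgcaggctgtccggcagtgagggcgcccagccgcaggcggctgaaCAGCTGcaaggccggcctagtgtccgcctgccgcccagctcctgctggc
Dlx2 at chr2:71543076-71543225: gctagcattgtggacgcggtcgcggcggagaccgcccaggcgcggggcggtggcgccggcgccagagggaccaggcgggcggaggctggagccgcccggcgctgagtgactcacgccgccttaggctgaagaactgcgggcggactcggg
Sox4 at chr13:28948636-28948785: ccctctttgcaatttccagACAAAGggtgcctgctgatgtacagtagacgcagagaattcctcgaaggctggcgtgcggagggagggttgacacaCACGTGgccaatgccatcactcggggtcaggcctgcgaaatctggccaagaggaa
In the last, beyond the 3' end of Hes7, capitals mark a leucine tRNA gene annotated by RefSeq.
Hes7 at chr11:69124176-69124325: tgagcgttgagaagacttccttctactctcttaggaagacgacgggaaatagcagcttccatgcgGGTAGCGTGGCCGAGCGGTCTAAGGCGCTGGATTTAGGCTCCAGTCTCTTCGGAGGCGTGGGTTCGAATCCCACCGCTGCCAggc

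Peaks were denser near coding 3' ends than in the rest of the eligible sequence, meaning non-N sequence outside coding exons and over 1 kb from every TSS. The windows around 3' ends made up 32.3 Mb, or 1.46% of eligible sequence. Shared peaks numbered 62.9 per Mb there and 36.7 per Mb elsewhere, a ratio of 1.71. In replicate 1 alone the density was 89.5 per Mb at 3' ends and 51.6 elsewhere, and in replicate 2 it was 108 and 72.1. The ratio of the libraries averaged 1.62 ± 0.164 (SD, n = 2), so both libraries had the higher density at 3' ends.

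The excess differed with where the window lay. Intergenic sequence within 1 kb of a 3' end had 68.0 shared peaks per Mb, against 31.3 in other intergenic sequence. Introns near a 3' end had 58.5 per Mb, against 42.6 in other introns. Exons near a 3' end had 59.0 per Mb, against 56.0 in other noncoding exon sequence, and in replicate 2 the exon ratio was 0.989, so exons showed little or no excess. The ratio also differed with the distance to a TSS. The median 3' end peak was 4382.5 bp from a TSS, against 13070.5 bp for other distal peaks. Between 1 and 2 kb from a TSS the density was 78.2 per Mb at 3' ends and 67.4 elsewhere, a ratio of 1.16. Over 10 kb from any TSS it was 49.0 and 31.6 per Mb, a ratio of 1.55. The ratio stayed above 1 in each of the 4 distance ranges in both libraries.

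**Figure D1:**
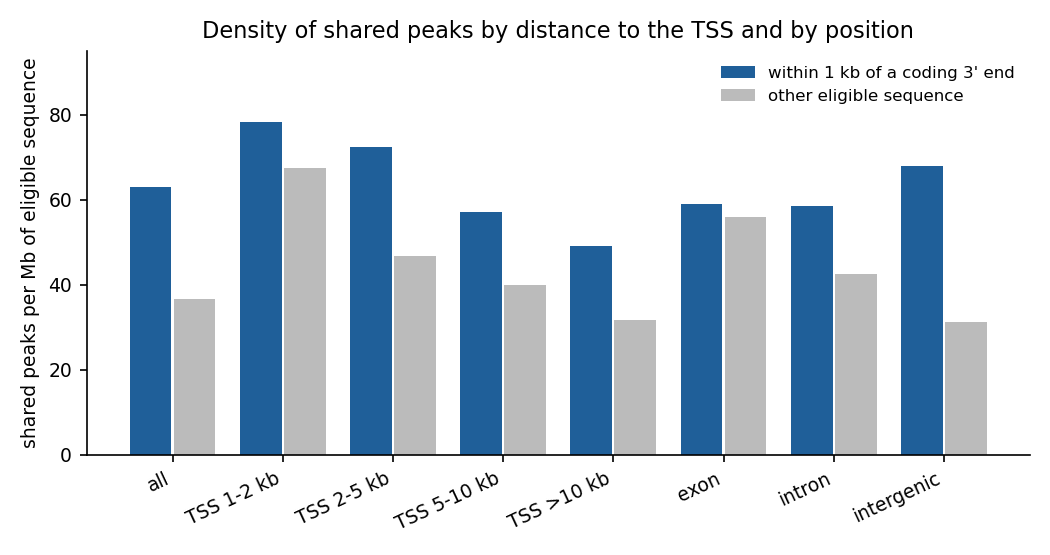
Shared peaks per Mb of eligible sequence (y axis) within 1 kb of a coding 3' end and in other eligible sequence, for all sequence, by distance to the nearest TSS and by position (x axis). The bars differ most in intergenic sequence (68.0 against 31.3 per Mb) and least in exons (59.0 against 56.0 per Mb); no error bar is drawn because each bar is a single count of shared peaks.

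The pattern along the gene end had 3 features. Beyond the 3' end the density was 68.9 per Mb in the nearest 500 bp, 69.4 from 500 to 1000 bp and still 60.5 from 2 to 5 kb. Inside the gene it was 52.6 per Mb in the last 500 bp, 59.3 from 500 to 1000 bp and 49.4 from 2 to 5 kb. For genes shorter than these distances, the inside zone ran past the start of the gene. The density was therefore higher on the downstream side, and on both sides, apart from the last 100 bp of genes, it stayed above the 36.7 per Mb of other eligible sequence out to 5 kb. Of the 2034 peaks, 1193 (58.7%) lay beyond the 3' end, at 69.2 per eligible Mb, and 841 lay inside the gene or on its last base, at 55.7 per Mb.

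The 3' end itself stood out as a dip. The last 100 bp of genes had 26.2 shared peaks per Mb, from 45 peaks, which was below the 36.7 per Mb of other eligible sequence. In the first 100 bp beyond the end it was 44.0 per Mb, and 200 to 300 bp beyond the end it was 89.7 per Mb, from 158 peaks. Both libraries had the dip. Replicate 1 had 47.2 peaks per Mb in the last 100 bp and 114 at 200 to 300 bp beyond, and replicate 2 had 56.5 and 134. The base composition moved with it: eligible sequence was 36.3% G and C in the last 100 bp of genes, and between 42.3% and 44.9% in the other 100 bp bins within 1 kb of the end. The part of base composition in the dip was not tested.

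**Figure D2:**
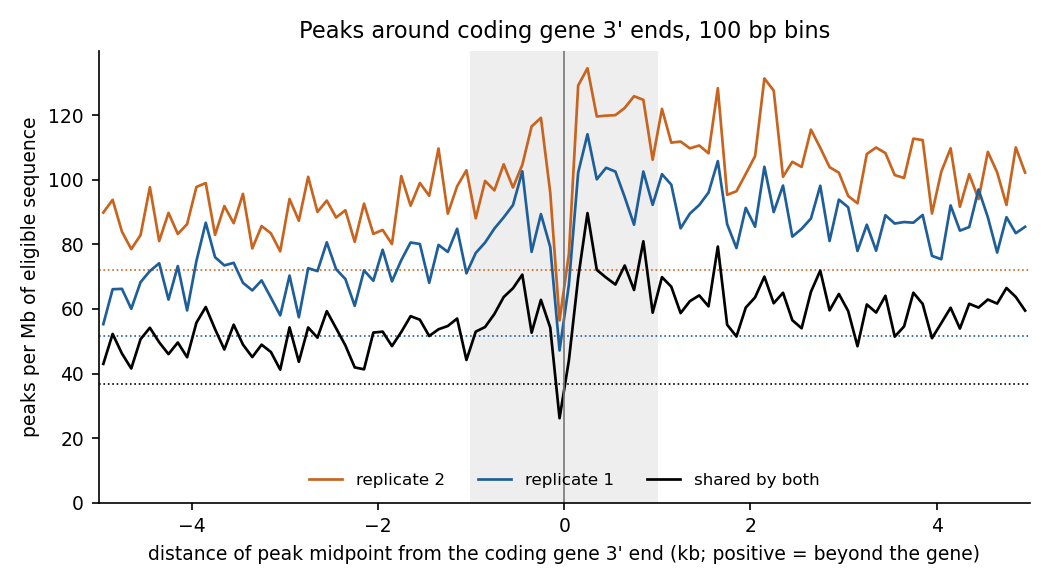
Peaks per Mb of eligible sequence (y axis) in 100 bp bins by signed distance of the peak midpoint from the nearest coding 3' end (x axis, kb, positive beyond the gene), for replicate 1, replicate 2 and peaks shared by both; dotted lines give each density in eligible sequence outside the shaded 1 kb windows. All 3 lines drop next to the 3' end (26.2 shared peaks per Mb in the last 100 bp), peak at 200 to 300 bp beyond it (89.7 per Mb) and stay above the dotted lines in every other bin out to 5 kb on either side.

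By annotation, 977 of the peaks (48.0%) were intergenic, 677 (33.3%) lay in the 3' UTR of the gene, 150 (7.37%) were beyond the end but within another gene, 133 (6.54%) were in an intron of the gene and 97 (4.77%) in another exon. Gene models differ, and 78 of the 977 intergenic peaks (7.98%) had their midpoint in a RefSeq exon. The nearest TSS belonged to the same gene for 1071 peaks (52.7%), to another coding gene for 526 (25.9%) and to a noncoding gene for 437 (21.5%). Of the 2034, 130 peaks (6.39%) were within 1 kb of the 3' ends of at least 2 coding genes.

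Scores ranked higher at 3' ends than at other distal peaks in both libraries. Each score was turned into a percentile rank among all peaks of its library, where 100 is the top. The median rank of 3' end peaks was 62.9 in replicate 1 and 70.8 in replicate 2, against 54.9 and 66.3 for other distal peaks. Shared peaks within 1 kb of a TSS were far above both, at 80.1 and 83.6. The order held at each distance from a TSS, for example 65.0 against 57.9 in replicate 1 at 5 to 10 kb and 59.3 against 53.3 over 10 kb. A rank of at least 90 in both libraries was reached by 148 of the 3' end peaks (7.28%) and by 3214 of the other distal peaks (4%).

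**Figure D3:**
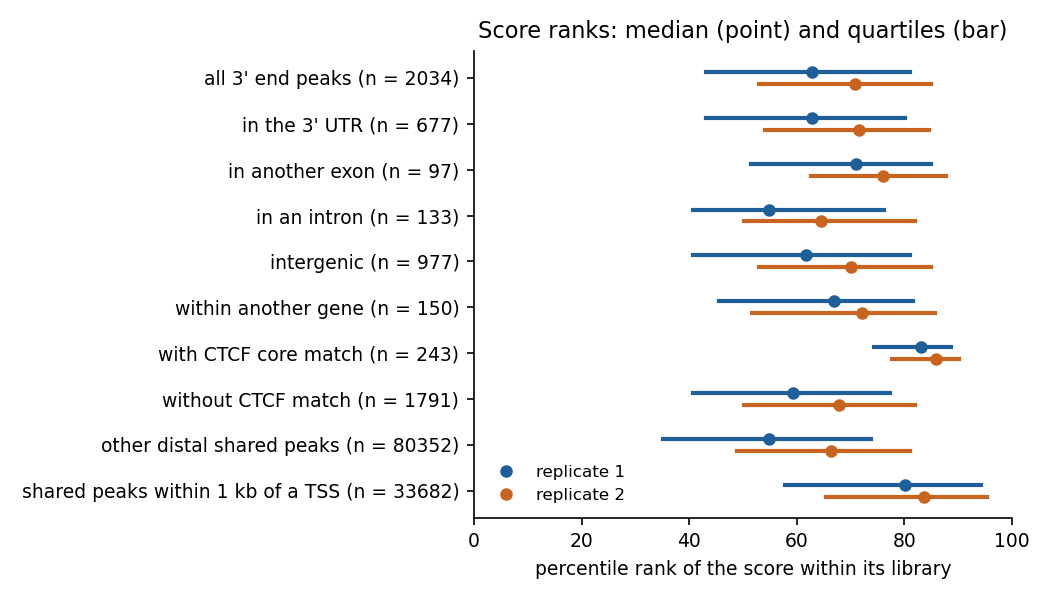
Percentile rank of the peak score within its library (x axis) for 3' end peaks, for their position classes and CTCF groups, and for other distal and TSS peaks (y axis, number of peaks in brackets); points are medians and bars run between the quartiles, for replicate 1 and replicate 2. Peaks with a CTCF core match sit highest among the 3' end groups (83.2 and 86.0), and other distal peaks lie below the 3' end peaks as a whole.

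Among the position classes the median ranks ran from 54.9 and 64.6 for introns to 71.0 and 76.0 for the small class of other exons. The 3' UTR peaks (62.9 and 71.5) and the intergenic peaks (61.7 and 70.1) lay between them and close to each other. The 171 peaks at 900 to 1000 bp from a 3' end had median ranks of 67.8 and 72.2, and the 175 peaks just outside, at 1000 to 1100 bp, had 64.0 and 70.1. At the TSS cutoff, the 44 peaks 1000 to 1100 bp from a TSS had 66.0 and 72.9. The 58 just on the other side of that cutoff, 900 to 1000 bp from a TSS, had 56.5 and 66.3.

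The 10 highest-ranked peaks, by the lower of their ranks in the 2 libraries and with 1 peak per gene, were rich in G, C and CpG. The top peak lay 288 bp beyond Sec14l2, which encodes a lipid-binding protein, and scored 128 in replicate 1 and 143 in replicate 2, ranks 99 and 99.8. It was 1306 bp from a TSS of another coding gene, and its hotspot in replicate 2 also held a promoter peak. The next lay 181 bp inside the 3' end of a (nonagouti), the secreted antagonist of melanocortin receptors known for coat colour, with scores of 127 and 137. The peak 186 bp beyond Ctdsp1, a phosphatase of the RNA polymerase II tail, scored 125 and 138. These are near the top of both libraries, above most promoter peaks. The Fam120a, 1700008O03Rik, Scarf2, Dtx1, Dnajb12, Sf3b5 and Rpn1 peaks followed, with ranks from 96.1 to 99.1 in either library. Dtx1 is a ubiquitin ligase of the Notch pathway, Scarf2 a scavenger receptor, Rpn1 a subunit of the enzyme that adds N-glycans, and the 1700008O03Rik peak also overlaps Shank1, a scaffold of excitatory synapses.

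All 10 of these were between 58.7% and 75.3% G and C, 8 of them had a CpG observed over expected ratio above 0.6, and none had a CTCF core match. Their hotspots, the wider regions of cutting that the authors called, were 772 to 1409 bp wide in replicate 1 and 972 to 3632 bp in replicate 2, against medians of 326 and 454.5 bp over all 3' end peaks. The Sf3b5 peak, for a subunit of the splicing factor SF3b, was 39 bp from a TSS annotated by RefSeq, and Sf3b5 had no promoter peak at its GENCODE start sites. Over all 3' end peaks, 83 (4.08%) lay within 1 kb of a RefSeq TSS, against 4.57% of other distal peaks.

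CpG-rich sequence was more frequent at 3' ends. Over 50% G and C together with a CpG ratio above 0.6 was found in 193 of the 3' end peaks (9.49%) and in 5.13% of other distal peaks. These 193 peaks had median ranks of 77.4 and 81.6. They were 12.2% of the peaks inside the gene and 7.54% of those beyond the end. Among peaks ranked at least 90 in both libraries, 37 of 148 at 3' ends (25%) were CpG-rich, against 26.0% of other distal peaks, so at the top of the scale the shares were close. The median G and C content was 52.7% at 3' ends and 50% in other distal peaks. The GC box GGGCGG, searched on both strands like all motifs here, was in 9.44% of 3' end peaks and 5.96% of other distal peaks.

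CTCF matches were also more frequent at 3' ends. The core of the CTCF motif was found in 243 of the 2034 peaks (11.9%, exact Clopper-Pearson 95% interval 10.6 to 13.4%), against 6.86% (6.69 to 7.04%) of other distal peaks and 2.11% of shared peaks near a TSS. Such intervals cover counting error only, and neighbouring peaks are not independent. The peaks with a match had median ranks of 83.2 and 86.0, against 59.3 and 67.9 for the 1791 without. The share was also larger at 3' ends among peaks of high rank. Between ranks 75 and 90 it was 26.9% (23.2 to 30.9%) at 3' ends and 19.1% (18.4 to 19.7%) in other distal peaks, and from rank 90 it was 24.3% and 16.1%. Below rank 75 the intervals overlapped, for example 2.30% against 2.06% between ranks 25 and 50. By position it was 12.6% against 7.26% in intergenic sequence and 13.4% against 6.45% in introns, and in exons 10.6% (8.51 to 12.98%) against 7.69% (6.66 to 8.82%), intervals that overlap. Between 2 and 5 kb from a TSS the intervals also overlapped, at 10.5% (8.39 to 12.9%) against 8.43% (7.96 to 8.92%). Among all peaks of a single library, shared or not, the share was 8.51% (7.51 to 9.58%) against 4.95% in replicate 1 and 7.51% (6.66 to 8.43%) against 3.84% in replicate 2.

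The highest-ranked peaks with a CTCF match were at Acvrl1, Lag3, Skap2, Ror2 and Eef1b2. The Acvrl1 peak, 275 bp beyond the gene of an endothelial receptor of the TGF-beta family, scored 111 and 130, and its match, shown above, ran against the gene. The Eef1b2 peak, 745 bp beyond the gene of a translation elongation factor, scored 105 and 121 and held 2 matches along the gene. The Ror2 match, in the 3' UTR of a Wnt receptor gene, ran against the gene, with scores of 106 and 132. Both directions thus occurred among the leading sites. Over the 242 peaks whose matches had a single direction, 139 (57.4%, 50.9 to 63.7%) ran along the gene. Beyond the 3' end this was 96 of 153 (62.7%, 54.6 to 70.4%) and inside it 43 of 89 (48.3%, 37.6 to 59.2%), and these intervals overlap.

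Motifs of retinal transcription factors were not more frequent at 3' ends. The homeodomain motif TAATTA was in 60 peaks (2.95%), against 6.57% of other distal peaks, and the SOX motif ACAAAG in 245 peaks (12.05%), against 15.3%. The E-box CAGCTG, a form bound by bHLH proteins, was in 14.7% against 16.1%. The ETS motif CCGGAA was in 3.44% against 2.77%, and CCAAT, the box bound by NFY, in 18.2% against 19.6%. TAATTA holds no G or C, and 3' end peaks were richer in G and C than other distal peaks; the part of base composition in that difference was not tested. The polyadenylation signal AATAAA was read on the gene strand in 110 peaks (5.41%) and on the opposite strand in 85 (4.18%). On the gene strand it was in 8.27% of the 3' UTR peaks and 3.99% of the intergenic peaks.

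A minority of genes had a 3' end peak. Of 20807 autosomal coding genes, 1757 had at least 1 within 1 kb of their own 3' end, 8.44%. Among the 14564 genes with a promoter peak in both libraries it was 1472, 10.1%, and among the 5517 genes with none in either it was 219, 3.97% (3.47 to 4.52%). Genes that share an end were counted separately; counted by distinct ends, 1737 of 20746 had a peak (8.37%). The most shared such end, of 17 genes on chromosome 18, had 3 peaks. The strongest promoters did not have the most 3' end peaks: the share was 12.4% for genes with a promoter rank from 75 to 90 and 9.09% from 95 to 100. Genes under 5 kb with a promoter peak in both libraries had a 3' end peak in 14.5% of cases, and those over 100 kb in 7.87%. Over all genes the shares were 8.37% and 7.97%.

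The share by neighbouring gene depended on how it was counted. A 3' end facing the 3' end of a gene within 5 kb had a peak in 10.1% of 2931 cases, and one followed by a gene on the same strand in 7.76% of 2204. Where no coding gene lay within 5 kb it was 8.11%, and for the 3061 ends inside another coding gene it was 8.76%. Restricted to genes with a promoter peak in both libraries, these shares were 10.5%, 8.63%, 10.5% and 9.32%. Neighbours also leave less eligible sequence in the window: its median was 1521.5 bp for same-strand neighbours and 1965 bp for isolated genes. For the density, a peak was counted at each gene end within 1 kb of it. Per eligible Mb there were 86.2 peaks at ends inside another coding gene and 75.1 at facing ends. Ends followed by a gene on the same strand had 71.4 and isolated ends 58.8. The order of these arrangements therefore differed between the measures.

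Genes of 4 retinal lists had 3' end peaks more often than the 8.44% of all genes. In these lists, of progenitor, neurogenic, ganglion cell, and amacrine and horizontal cell genes, 32 of 85 had 1 or more (37.6%, 27.4 to 48.8%), where genes with a promoter peak in both libraries stood at 10.1%. The counts were 8 of 20 progenitor genes, 9 of 20 neurogenic, 10 of 25 ganglion cell and 5 of 20 amacrine and horizontal cell genes. A further retinal list, of photoreceptor precursor genes, had only 1 of 14 (7.14%). High shares were not limited to retinal lists, as mesenchyme genes had 5 of 18 (27.8%). In retina as a whole, a peak that is low because few cells have it and a peak that is low in every cell cannot be told apart.

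**Figure D4:**
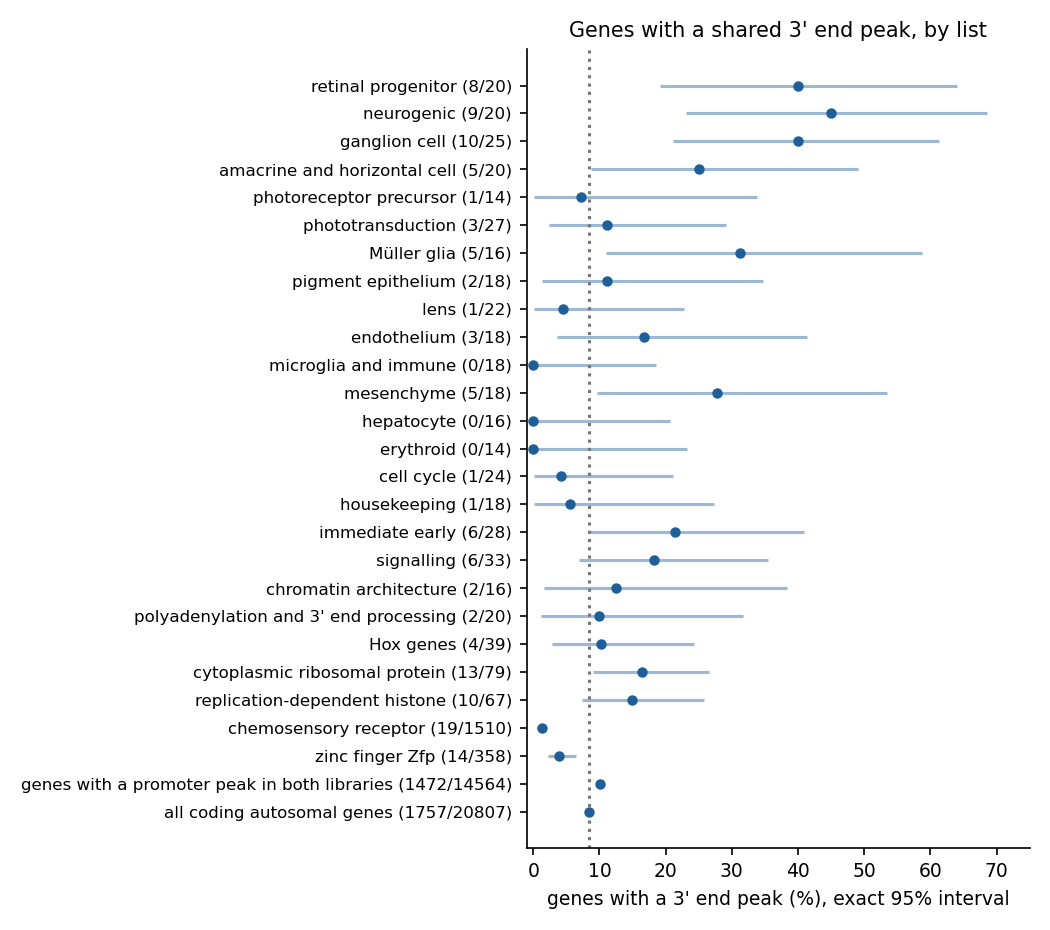
Share of the autosomal genes of each list with a shared 3' end peak (x axis, percent), with the count in brackets and bars for the exact 95% interval of counting error; the dotted line is the 8.44% of all coding autosomal genes, in the bottom row. The progenitor, neurogenic and ganglion cell lists lie at 40%, 45% and 40%, with intervals wholly right of the line. The intervals of the amacrine and horizontal cell, Müller glia, mesenchyme and ribosomal protein lists also lie wholly right of it. Those of the chemosensory receptor and Zfp lists lie wholly left of it.

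Among progenitor genes, Six3, a homeobox gene required for eye and forebrain, had the strongest peak, 311 bp inside its 3' end in the 3' UTR, with scores of 109 and 133, ranks 95.4 and 97.8. Ccnd1, the cyclin D1 gene that drives retinal progenitor division, had 4 peaks, with scores from 28 to 51 in replicate 1 and from 50 to 78 in replicate 2. Hes1, a Notch effector that holds progenitors undifferentiated, had a peak 355 bp beyond the gene with scores of 42 and 80. All lay above the middle of the scale in at least 1 library. Sfrp2, Notch1, Fgf15, Rax and Id3 were the other progenitor genes with a peak, and the Id3 peak ranked 56.5 in replicate 1 but 31.7 in replicate 2.

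Among neurogenic genes, the peak 357 bp inside the end of Gadd45g, a growth arrest gene of newborn neurons, ranked 89.6 in both libraries. Sox4, a SOX factor of differentiating neurons, had 3 peaks, the strongest 208 bp beyond the gene with scores of 69 and 109. Neurog2, a proneural bHLH gene, had a peak in the 3' UTR with scores of 36 and 73. Olig2, another bHLH gene of progenitors, had 4 peaks, 2 of which overlapped, with ranks from 54.9 to 68.6 in replicate 1. Cbfa2t2, Rgs16, Insm1 and Gadd45a were also among the neurogenic genes with a peak. The Gadd45a peak was low in replicate 1, at rank 17.4.

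Ganglion cell genes had 21 peaks over 25 genes, close per gene to the 16 over 20 of the neurogenic list. Isl1, a LIM homeobox gene needed for ganglion cell differentiation, had 4 peaks with midpoints from -690 to 710 bp relative to its end (positive beyond the gene), with scores of 28 to 39 in replicate 1 and 43 to 70 in replicate 2. Pou4f1 also had 4, 2 of them overlapping, with scores of 27 to 51 and 51 to 77, and Pou4f2, the POU factor that leads the ganglion cell program, had 2, with scores of 31 and 28 in replicate 1 and 50 and 53 in replicate 2. These were middling sites set close together, not strong ones. The strongest of the list was the CTCF site 200 bp beyond Ebf1, with scores of 93 and 106, the only 1 of the 32 retinal genes whose best-ranked peak held a CTCF match. Dlx2, Isl2, Pou4f3, Dlx1, Irx2 and Nefm also had peaks. Among amacrine and horizontal cell genes, Ptf1a, the bHLH gene that specifies both, had a peak 750 bp beyond the gene with scores of 81 and 126, and Barhl2 had 1 at 472 bp beyond with scores of 79 and 102. Slc32a1, Lhx1 and Tfap2b had weaker ones.

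The retinal genes were rich in peaks around the 3' end as well as at it. Peaks and eligible sequence were summed here gene by gene, so a peak near the ends of several genes was counted at each. Within 1 kb of their 3' ends the retinal genes had 403 shared peaks per eligible Mb, against 65.6 for all genes. With each peak and base counted once, the density at all 3' ends was 62.9, as given above. From 1 to 5 kb on the gene side of the end they had 320 per Mb, against 51.6, and from 1 to 5 kb beyond it 292, against 62.7. The gene side was a fixed distance whatever the gene length. In short genes such as Olig2 (3221 bp) and Dlx2 (3347 bp) it ran past the start into upstream sequence, so 320 per Mb is not a density within genes. From 5 to 20 kb beyond, the values were 106 and 54.6. Their 3' end peaks thus lay inside a wider stretch of dense peaks. Of the 32 genes with a peak, 15 (46.9%) had 2 or more, against 19.9% of all genes with a peak.

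**Figure D5:**
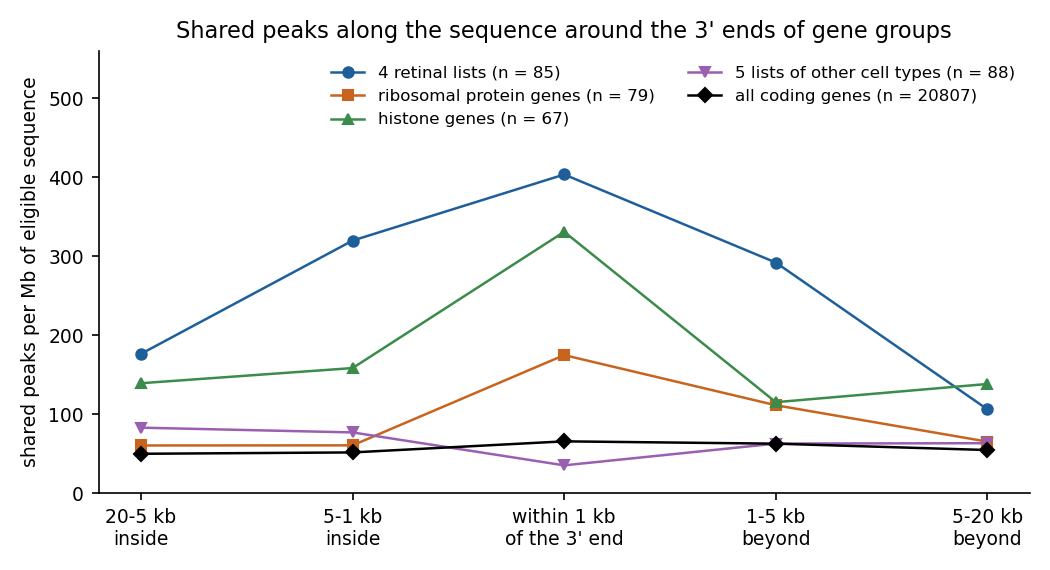
Shared peaks per Mb of eligible sequence (y axis) in 5 zones by distance from each gene's own 3' end (x axis), for retinal genes, ribosomal protein genes, histone genes, genes of 5 other cell types and all coding genes. Peaks and sequence were summed gene by gene. Retinal genes are highest within 1 kb of the 3' end (403 per Mb) with high values on either side, and ribosomal protein genes stand at 175 per Mb at the 3' end with 60.5 inside and 111 beyond.

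Lists of other cell types differed among themselves. In the lens, endothelium, microglia, hepatocyte and erythroid lists, 4 of 88 genes had a 3' end peak (4.55%, 1.25 to 11.2%), an interval that includes the 8.44% of all genes. With mesenchyme and pigment epithelium added it was 11 of 123 (8.94%, 4.55 to 15.4%). The 4 among the 88 were Sox17, Cdh5 and Egfl7 of endothelium, and Sox1 of the lens list, which neural progenitors also express. Sox17, Cdh5 and Egfl7 had ranks of 40.7, 38 and 29.3 in replicate 1 and 42.8, 41.1 and 67.1 in replicate 2. The microglia, hepatocyte and erythroid lists had none, 0 of 18, 0 of 16 and 0 of 14, with intervals that reach 18.5%, 20.6% and 23.2%. Mesenchyme genes had 5 of 18 (27.8%, 9.69 to 53.5%), among them Osr1, Foxc2, Twist1 and Tbx18, which encode transcription factors. Photoreceptor precursor genes had 1 of 14, Nrl, the leucine zipper gene of rod fate, whose best peak scored 51 and 89. Phototransduction genes had 3 of 27, Guca1a, Prph2 and Pde6h, none of whose best peaks was above rank 51.7. Müller glia genes had 5 of 16, Clu, Slc1a3, Hes1, Sox8 and S100a16, and pigment epithelium genes 2 of 18, Rdh5 and Otx1.

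Some lists of widely expressed genes had 3' end peaks as well. Of 79 cytoplasmic ribosomal protein genes, 13 did (16.5%, 9.06 to 26.5%), and 5 of the 13 best peaks held a CTCF match. That interval lies above the 8.44% of all genes but includes the 10.1% of genes with a promoter peak in both libraries. Rpl22 led with scores of 98 and 122, from a peak in its 3' UTR with a CTCF match. Of 67 replication-dependent histone genes, whose transcripts end in a stem-loop and carry no poly(A) tail, 10 had a peak (14.9%, 7.40 to 25.7%), the strongest 412 bp beyond Hist1h1b with scores of 88 and 124. The histone interval includes the 8.44% of all genes. Histone genes lie close together, so a peak beyond 1 gene is near others. Cell cycle genes had 1 of 24 (Cdk1) and housekeeping genes 1 of 18 (Gapdh), counts too small to set against all genes. In single libraries housekeeping genes had 4 of 18 (22.2%) in replicate 1 and 3 of 18 (16.7%) in replicate 2, against 10.6% and 12.5% of all genes. Immediate early genes had 6 of 28 (21.4%, 8.30 to 41.0%), with Zfp36l2 highest at scores of 75 and 112. Signalling genes had 6 of 33 (18.2%, 6.98 to 35.5%), with Tcf7l2 highest at 89 and 126. Both intervals include the 8.44% of all genes. Chromatin architecture genes had 2 of 16, genes of the cleavage and polyadenylation machinery 2 of 20, and Hox genes 4 of 39. Chemosensory receptor genes had 19 of 1510 (1.26%) and Zfp zinc finger genes 14 of 358 (3.91%), both below all genes.

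Most genes with a 3' end peak had a single 1. Of the 1757, 1408 had 1, 249 had 2, 82 had 3, 17 had 4, and Grik5, the gene of a kainate receptor subunit, had 5. Peaks at a gene can overlap each other, as at Grik5 and Cdh16, so these are not counts of separate sites. Genes that share an end were again counted separately, and the 100 genes with 3 or more peaks had 81 distinct ends. The Grik5 peaks scored from 23 to 80 in replicate 1 and from 60 to 111 in replicate 2, the strongest in its 3' UTR. The genes with 4 included Emx2, Nkx2-1, Isl1 and Foxf2, transcription factor genes with peaks of middle or low rank. Foxf2 ranged from rank 6.9 to 47.7 in replicate 1 and from 10.8 to 56.5 in replicate 2. Cdh16, of a cadherin best known from kidney, combined 1 strong peak, with scores of 111 and 130 in an intron, with 3 of at most 23 in replicate 1, although the gene had no promoter peak in either library. In Hspa2, 2 of the 4 overlapped each other and the same replicate 2 peak.

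The genes with 4 peaks also included cases that differed in other ways. The 4 peaks in the 3' UTR of Lars2, a mitochondrial leucyl-tRNA synthetase, scored 116, 96, 85 and 57 in replicate 1 and 100, 96, 87 and 51 in replicate 2. Each of them overlapped another of the 4, so they are not 4 separate sites. Replicate 1 was as high as replicate 2 or higher at 3 of the 4, while the median score over all 3' end peaks was 38 in replicate 1 and 69 in replicate 2. At Mrpl58, 3 of the 4 peaks overlapped arginine tRNA genes, with scores of 86 to 92 and 103 to 118. RefSeq tRNA genes, which the GENCODE TSS set does not hold, overlapped 11 of the 3' end peaks (0.541%) and 0.283% of other distal peaks. At Mrpl58 and at Arl5c, some of these peaks overlapped each other on the same tRNA gene. The median ranks of these 11 were 92.1 and 93.7, and all were on chromosome 11, with 6 at Hes7, Per1, Ctc1 and Borcs6 between 69036996 and 69124705.

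Several genes had a strong 3' end peak but no promoter peak in either library. Besides Sf3b5 and Cdh16 they were Slc11a1, a metal transporter of macrophages, with scores of 112 and 132 at 929 bp beyond the gene, and Stac3, an adaptor of muscle calcium channels, with 106 and 119 and a CTCF match. The fifth was Atp6v1fnb, with scores of 97 and 119, whose peak lay within another gene. The Stac3 peak was 103 bp from a RefSeq TSS.

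The 2 libraries shared most but not all peaks at these positions. Of the 2892 replicate 1 peaks that met the position rule, 2034 (70.3%) were overlapped in replicate 2, against 71.2% of other distal peaks. Of the 3502 replicate 2 peaks at such positions, 57.2% were overlapped in replicate 1, against 49.7%. The overlap followed rank: it was 26.3% below rank 25 in replicate 1 and 99.4% above rank 75. The low-ranked 3' end peaks are therefore those least often seen in both libraries. Across the 2034 peaks Spearman's correlation of the ranks was 0.929, and 0.903 across other distal peaks, a description of peaks that share libraries and were selected to be in both.

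Ranks come from lists of different length, 165269 and 219308 peaks, so a shift between them shows no change. The rank in replicate 2 minus that in replicate 1 had a median of 4.73 at 3' end peaks, from -32.4 to 49.9, against a median of 7.61 at other distal peaks. The largest positive difference was at Ssh3, with ranks of 20.2 in replicate 1 and 70.1 in replicate 2, followed by Tex37, Olfr427, Rnf135 and Rpl23. In the other direction, Lnx1 ranked 43.2 in replicate 1 and 10.8 in replicate 2, followed by Cntnap2, Dmkn, Arih1 and Id3. The 5 lowest peaks, at Gm8113, Defa26, Hamp2, Gm1979 and Hamp, had scores of 4 to 11 in replicate 1 and 13 to 16 in replicate 2.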

How the data were processed

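DNase-seq of embryonic day 14.5 mouse retina was analysed from the authors' peak and hotspot lists of 2 replicates, on mm10 per the labels. Peaks and hotspots are deposited per library; which aligner and caller made them is not given in the sources used here. A score deposited for each peak has no stated unit, so it was turned into a percentile rank within its library, with tied scores at their mean rank. All scores were whole in value, and 12.1% in replicate 1 and 7.80% in replicate 2 were written with a decimal point and a 0. The hotspot lists the authors deposited give a −log10 false discovery rate, used here only to locate hotspots and give their width. Exact duplicate lines (34 in replicate 1 and 56 in replicate 2) were removed.

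GENCODE release M21 gave coding gene ends, TSSs of all transcripts and coding sequence; RefSeq on GRCm38, the same assembly as mm10, gave the sequences, tRNA genes and further TSSs. All 500 of 500 single-exon transcripts compared were identical to the genome. Peaks were counted per Mb of eligible sequence, and motifs as exact consensus matches on both strands. Shares have exact Clopper-Pearson 95% intervals. Analysis used Python 3.11.15, numpy 2.4.6, pandas 2.3.3, scipy 1.17.1, pysam 0.24.0 and samtools 1.23.1, and the counting was tested on simulated peaks.

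No test between groups was possible with 1 group. Peaks were named by rule: the 10 highest by the lower rank, the 5 highest in each position class, with and without a CTCF match and at genes without a promoter peak, the 5 lowest, the 5 with the largest rank difference each way, up to 3 genes per list and the genes with most peaks. Genes named beyond this, and those at tRNA genes, were chosen after their values were seen. The peaks and gene lists were chosen with earlier results of these data known. Alternatives were window, TSS distance and set, gene end, overlap, score cutoffs, exonic peaks, hotspots with promoters and each library alone.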

Additional observations from a re-analysis of the deposited data

How the results depend on the processing

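The density ratio stayed above 1 under all 14 alternatives run for it. Its main value of 1.71 became 1.51 with the end of any coding transcript and 1.97 with peaks at or above the median score, and 1.503 to 1.735 with 1 library left out. The number of peaks was 1025 with a 500 bp window, 3730 with 2 kb, 3020 with the end of any coding transcript, 897 over 5 kb from a TSS, 1326 at or above the median score, 1260 without exonic midpoints, and 2892 to 3502 in 1 library alone. The share beyond the 3' end was 59.5% with 500 bp, 56.3% over 5 kb from a TSS, 59.0% with coding TSSs only, with peaks at or above the median score and without decimal-form scores, 59.1% without hotspots that hold a promoter peak, 58.1% over 1 kb from RefSeq TSSs too (added after seeing the data), 57.6% to 58.0% with 1 library left out and 89.4% without exonic midpoints, a setting that removes most sites inside genes. The median ranks were 75.7 and 81.0 at or above the median score and 49.7 and 51.7 in replicate 1 alone and replicate 2 alone. The CTCF share was 13.2% over 5 kb from a TSS, 13.6% with 75 bp of overlap, 17.2% at or above the median score, 12.9% without decimal-form scores, 12.8% without exonic midpoints and 7.51% to 8.51% in 1 library alone. The share of genes was 4.73% with 500 bp, 14.4% with 2 kb, 6.87% over 2 kb and 3.78% over 5 kb from a TSS, 12.02% with any coding transcript end, 5.99% at or above the median score, 5.43% without exonic midpoints and 10.6% to 12.5% in 1 library alone. For the 4 retinal lists, alternatives chosen after seeing the data gave 29.4% with a lower rank of at least 50 (all genes 5.89%), 27.1% beyond the 3' end only (all genes 5.37%) and 47.1% to 48.2% in 1 library alone. No paired analysis was possible because there is 1 group. Depth is unknown, and low-ranked peaks are least often found in both libraries.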

Other observations

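Families of developmental transcription factors, picked by symbol after the values were seen, had 3' end peaks at a share close to that of the retinal lists, with which they share genes. Of 142 genes of 11 families (forkhead, SOX, POU, T-box, LIM homeobox, NK homeobox, DLX, ZIC, PAX, Iroquois and the homeobox relatives of Six3), 53 had a 3' end peak (37.3%), against 8.44% of all genes, and 16 (11.3%) had 3 or more, against 0.481%. The SOX family had 8 of 18 and the LIM homeobox family 5 of 12. The PAX family had 0 of 9, although 3 of its genes had a replicate 2 peak at such a position. Summed gene by gene around their ends, the 142 genes had 411 shared peaks per eligible Mb within 1 kb, against 65.6 for all genes. At 1 to 5 kb they had 338 on the gene side and 266 beyond, against 51.6 and 62.7 for all genes. The gene side again ran past the start of shorter genes.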
